A study of Mus musculus with 12 samples.

Results

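The 49 genes described here encode plasma proteins that hepatocytes secrete: complement components, coagulation factors, fibrinogen chains, serpins and related inhibitors. They were chosen by name and function, and a region of open chromatin belonged to a gene if it overlapped the gene's span or lay within 10 kb of it. The 49 genes held 767 of the 292665 regions found in the 12 libraries, and 437 of these were listed in at least 3 libraries and were tested, of 138538 tested regions in all. Every gene had at least 2 tested regions, from 2 at F7 to 25 at Hc, and 209 of the 437 were listed in all 12 libraries. The remaining 330 were listed in fewer than 3 libraries and were not tested. Just inside the 10 kb limit lay regions of Ahsg (9910 bases from the gene, diet difference −0.15), Itih2 (9756 bases, −0.29) and C8g (9654 bases, 0.57), and just outside it regions near Ahsg (10002 bases, 0.08), Masp2 (10259 bases, 0.18) and Itih4 (10262 bases, −0.03).

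The assay was ATAC-seq, where Tn5 transposase cuts accessible chromatin and tags the fragments for sequencing. It was applied to hepatocytes that had been released from mouse liver by collagenase perfusion. The 4 groups had 3 mice each. Control mice (FBXL5F/F) carried loxP-flanked alleles of Fbxl5 and no Cre, and deleted mice (Alb-Cre/FBXL5F/F) carried the same alleles and a Cre recombinase under the albumin promoter, which is active in hepatocytes and in their embryonic precursors. As only the deleted mice carried Cre, Cre and the deletion cannot be told apart. Mice of both genotypes ate either standard chow or chow containing 0.1% DDC, a porphyrinogenic compound that causes cholestatic liver injury, for 2 weeks. FBXL5 senses iron and directs the ubiquitination of IRP2, an iron regulatory protein. The labels in use give no age, sex or strain.

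Complement is a cascade of plasma proteases and binding proteins. The C1 and lectin complexes cleave C4 and C2, the resulting convertases cleave C3, and the last components assemble into a pore in the target membrane. Coagulation factors are proteases and cofactors that end in thrombin, which turns fibrinogen into fibrin, and plasmin dissolves it. Serpins are suicide inhibitors of such proteases. Hepatocytes are the main source of most of these proteins, and several, among them C3 and fibrinogen, are acute-phase proteins, a class of genes regulated by C/EBP and STAT3.

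The value of a region in a library is the rank of its fold enrichment within that library's 137034 strongest peaks, placed on a log2 fold enrichment scale averaged from the 12 libraries. An unlisted region took the lowest value, 1.27. Differences are in log2 units of this value ± SE, and describe a region's standing among its library's regions. A region open in fewer cells and a region less open in each cell cannot be told apart. The deposited lists held 137034 to 202912 peaks in 10 libraries, but 262080 and 260622 in deleted standard-diet mice 1 and 3. The fold enrichment of the weakest kept peak was 1.38 in control standard-diet mouse 3, whose list was the shortest and was kept whole. It was 2.27 to 2.47 in the other standard-diet mice and 2.53 to 2.84 on DDC. Counts are therefore also given without deleted standard-diet mice 1 and 3, and with the weakest kept fold enrichment as a covariate. On that covariate control standard-diet mouse 3 lay apart from all others. Of the hepatocyte marker gene starts with a known position, 6 or 7 of 7 were listed in every library. The 2 tested regions at Fbxl5 (chromosome 5, 43745212 to 43745590 and 43781400 to 43782725, mm10) passed in no genotype comparison, and the labels do not name the deleted part of the gene, so they do not check the deletion.

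Gene starts were known for 37 of the 49 genes from RefSeq promoter windows (GRCm38.p6, the assembly of mm10). C4b, C2, Cfb, Cfi, Masp1, Plg, Proc, Kng1, Serping1, Serpina3k, Serpina6 and Serpina10 had no entry. Each window runs from 250 bases before to 50 bases after the gene start. The windows below are those of the 4 gene starts at which accessibility passed the test for DDC (C3, C8g, F7 and C8b), of F13b, the most accessible gene start, and of Fgb, whose window held 3 of the motifs searched. They are written 5′ to 3′ on the gene's own strand, with motif matches in capitals. C3 lies at chr17:57228087-57228386 on the minus strand, C8g at chr2:25500457-25500756 (minus), F7 at chr8:13025784-13026083 (plus), C8b at chr4:104766067-104766366 (plus), F13b at chr1:139501457-139501756 (plus) and Fgb at chr3:83049814-83050113 (minus).
C3: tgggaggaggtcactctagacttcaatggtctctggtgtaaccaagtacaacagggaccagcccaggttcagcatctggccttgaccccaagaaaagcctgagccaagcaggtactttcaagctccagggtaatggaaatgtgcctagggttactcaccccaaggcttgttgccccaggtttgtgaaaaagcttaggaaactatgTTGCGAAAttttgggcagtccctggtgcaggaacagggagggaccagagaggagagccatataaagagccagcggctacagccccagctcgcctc
C8g: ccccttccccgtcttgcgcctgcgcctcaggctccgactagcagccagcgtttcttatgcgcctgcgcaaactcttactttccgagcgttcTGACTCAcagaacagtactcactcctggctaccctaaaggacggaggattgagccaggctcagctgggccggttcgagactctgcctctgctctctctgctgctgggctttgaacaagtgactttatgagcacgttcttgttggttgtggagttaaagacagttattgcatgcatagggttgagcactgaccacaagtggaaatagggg
F7: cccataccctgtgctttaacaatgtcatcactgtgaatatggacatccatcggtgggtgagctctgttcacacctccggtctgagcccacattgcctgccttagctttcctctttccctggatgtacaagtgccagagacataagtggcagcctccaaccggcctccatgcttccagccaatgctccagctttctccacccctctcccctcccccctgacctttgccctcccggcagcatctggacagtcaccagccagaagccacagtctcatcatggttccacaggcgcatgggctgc
C8b: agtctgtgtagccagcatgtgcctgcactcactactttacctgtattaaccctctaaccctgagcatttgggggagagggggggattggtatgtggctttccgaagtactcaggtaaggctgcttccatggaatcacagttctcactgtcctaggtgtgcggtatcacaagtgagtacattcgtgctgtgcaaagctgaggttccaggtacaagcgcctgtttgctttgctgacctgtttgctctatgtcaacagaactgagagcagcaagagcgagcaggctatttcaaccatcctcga
F13b: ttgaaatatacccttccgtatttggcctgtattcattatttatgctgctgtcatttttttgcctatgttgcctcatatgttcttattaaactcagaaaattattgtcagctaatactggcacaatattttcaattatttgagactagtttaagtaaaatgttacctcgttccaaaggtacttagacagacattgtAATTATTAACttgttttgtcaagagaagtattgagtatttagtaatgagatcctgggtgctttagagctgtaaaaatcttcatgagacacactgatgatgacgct
Fgb: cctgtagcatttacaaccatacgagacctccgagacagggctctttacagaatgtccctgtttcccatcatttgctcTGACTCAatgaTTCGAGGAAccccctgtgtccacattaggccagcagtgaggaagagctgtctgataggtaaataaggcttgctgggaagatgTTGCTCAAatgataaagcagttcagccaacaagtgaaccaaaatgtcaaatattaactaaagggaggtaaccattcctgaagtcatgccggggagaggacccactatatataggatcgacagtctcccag

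In these windows C3 holds 1 C/EBP match that begins 45 bases before the start. C8g holds an AP-1 match, F13b a shortened HNF1 site, and Fgb an AP-1, a STAT and a C/EBP match, in that order toward the start. The windows of F7 and C8b hold none of the motifs searched. Over all 39 windows of the 37 genes, on both strands, the C/EBP motif TTGCNNAA was found in 15 (38.5%), against 10.8% of the 32851 mouse windows of the same length. The STAT motif TTCNNNGAA was found in 9 (23.1%, against 8.30%) and the AP-1 motif TGANTCA in 6 (15.4%, against 7.81%). The shortened HNF1 site was found in 3, those of C4bp, F13b and Hc (7.69%, against 0.399%). The full HNF1 site, the HNF4 site CAAAGTCC and the FXR inverted repeat were found in none, against 0.00913%, 1.42% and 0.0396% of all windows. The shortened HNF1 site is part of the full site, and the median GC content was 49.7% in the members' windows and 52.7% in all. These matches are descriptions of sequence and do not show binding.

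The region over the gene start was listed in all 12 libraries at 35 of the 37 genes. The exceptions were C1ra and Hc, whose gene-start regions had the lowest mean values (1.69 and 1.58). Among complement genes the most accessible starts were C8b (mean 3.98), C6 (3.80) and C1s1 (3.71). C8b and C6 encode parts of the membrane attack pore, and C1s1 a protease of C1. Among genes of coagulation and fibrinolysis they were F13b (4.03), the carrier subunit of the fibrin-crosslinking factor XIII, F7 (3.94), the protease that starts the extrinsic pathway, and Klkb1 (3.87), prekallikrein. Among inhibitors and carriers they were Serpind1 (3.58), heparin cofactor II, Serpina1b (3.49), an alpha-1-antitrypsin, and Itih3 (3.25), an inter-alpha-inhibitor heavy chain. Neighbours in this order differed by less than 0.153, the median SD within a group, except at the step from C8a (2.44) to C1ra. The gene start was not always the most open region. The highest value of all 437 regions lay inside C8b, 13354 bases from its start (chromosome 4, 104779425 to 104779916), with a mean of 4.65 and ranks between 63 and 1137 in the 12 libraries. Ordered by each gene's strongest region, C8b was followed by Pros1 (4.32, inside the gene), Cpb2 (4.26, upstream), Masp2 (4.20, upstream), Masp1 (4.19, outside the gene), F5 (4.16, inside) and Cfi (4.10, outside). None of these 7 regions passed in any comparison.

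**Figure D1:**
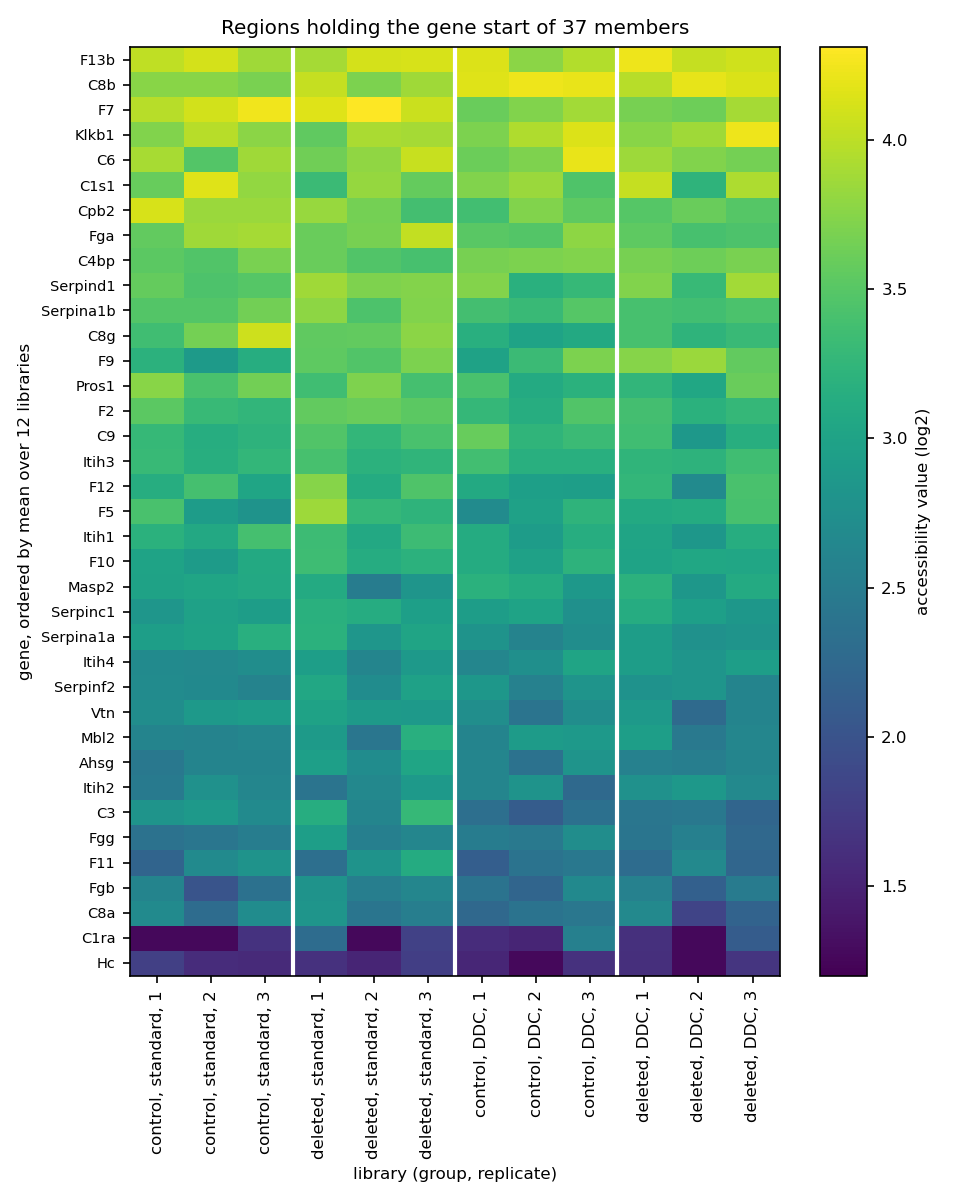
Accessibility value (log2, colour) of the region over the gene start of 37 genes (rows, ordered by their mean) in each of the 12 libraries (columns, grouped by genotype and diet). F13b, C8b and F7 have the highest means and C1ra and Hc the lowest, 1.69 and 1.58.

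DDC was associated with lower accessibility at a minority of the regions of the complement, coagulation and serpin genes. Over both genotypes, 33 of 437 regions (7.55%) at 24 genes fell and 8 (1.83%) at 8 genes rose (limma, Benjamini-Hochberg adjusted p under 0.05 over all 138538 regions). C3 had the most called falls, at 6 of its 10 tested regions. This count includes regions listed on the standard diet only, which could only fall once tested. Most of the C3 calls were lost without deleted standard-diet mice 1 and 3 or with the weakest kept fold enrichment as a covariate. Over all tested regions 4.87% fell and 8.1% rose. The median difference was −0.09 over the 437 regions, −0.00 over all regions and −0.09 over the 109 regions of hepatocyte marker genes, and 293 of the 437 differences (67.0%) were below 0. The gene's own median was below 0 at 42 of 49 genes. Among the 209 regions listed in all 12 libraries, 21 (10.0%) fell and 1 rose, against 6.49% and 6.30% of the 61671 such regions in all.

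The median of the called falls was −0.62 and the smallest −0.40. As these regions were chosen by the average over both genotypes, their like sign in both is no support for it. At 20 of the 33 falls, all 6 DDC libraries were below all 6 standard-diet libraries, and at 3 of the 8 rises all 6 were above. Because the regions were chosen by the diet difference in these same libraries, such separation, here and at the regions below, is a description and no added support. Of the falls 3 lay at a gene start, 16 elsewhere in the gene and 14 beyond it. Which regions are exonic or intronic is not known here, as the annotation in use gives gene spans only. No region was called at 20 genes (C4b, C2, C1s1, Mbl2, C4bp, F2, F10, F12, F13b, Fga, Fgg, Plg, Kng1, Klkb1, Serpinc1, Serpind1, Serpina1a, Serpina1b, Cpb2 and Itih4), whose 149 regions had differences between −0.52 and 0.55 (median −0.06). Without deleted standard-diet mice 1 and 3, 18 regions fell (4.12%, against 3.49% of all regions in that fit) and 3 rose (0.686%, against 4.57%). With the weakest kept fold enrichment as a covariate, 13 fell (2.97%, against 1.90%) and 4 rose (0.915%, against 3.75%). The part of this feature in the diet difference was not tested further. With ranks of −log10 p in place of fold enrichment, 42 of 477 regions fell (8.81%, against 6.14% of all regions) and 23 rose. With all deposited peaks 30 of 528 fell (5.68%, against 4.03%) and 14 rose. Counts were lower when peaks had to overlap by 50%, where 9 of 367 fell (2.45%, against 1.98%) and 4 rose. They were also lower without the filter on listed libraries, where 11 of 767 fell (1.43%, against 0.81%) and 3 rose. With peaks of −log10 q of at least 5 only 159 regions were tested, of which 16 fell (10.1%, against 6.99%) and 1 rose. In each of these settings the share that rose was below that of all regions. Falls beyond the 12 largest of a comparison are named below as well, and these were chosen after their values were seen. Of the 41 calls, 11 were also made without the 2 mice, with the covariate and without each mouse in turn: falls at C3 (2 regions), C6, C1ra, F5, Fgb, Itih2, Itih3 and Serpina6, and rises at Hc and Serpina3k. Of these 11, C1ra, Itih3, F5 and the C3 region beyond the gene lost their call with 50% overlap, the same C3 region with ranks of −log10 p, and F5 and Fgb with peaks of −log10 q of at least 5. Among the 41 calls, 5 regions were listed under 1 diet only (2 at C3, and 1 each at C6, C9 and C8g). They entered the test only through that diet and had to differ, so their calls are descriptions. The called rises at Hc and Serpina3k and the fall just after the F5 start reached 3 libraries only through 1 diet. Their sizes rest in part on the lowest value, and their sizes and p are descriptions.

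**Figure D2:**
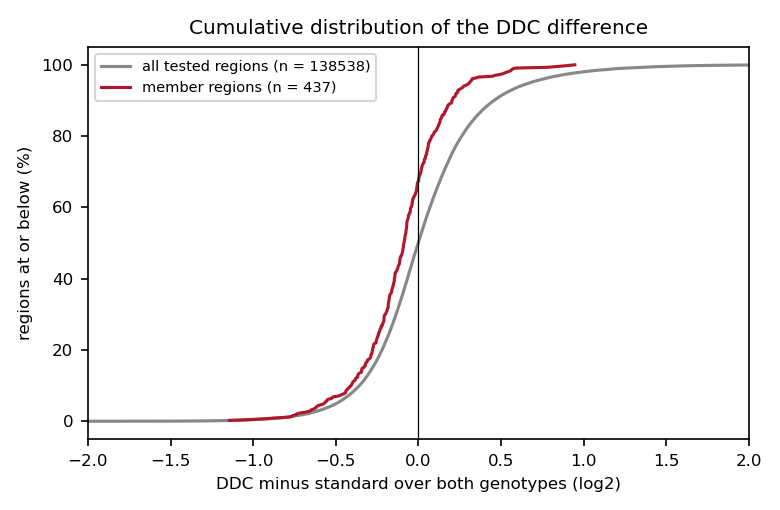
Cumulative share of regions (vertical axis, percent) at or below a given difference between DDC and standard diet over both genotypes (horizontal axis, log2), for the 437 regions of the 49 genes (red) and all 138538 tested regions (grey). The red curve crosses 0 at 67.0%, the grey one at 50.1%, and the red curve lies closest to the grey one at the largest falls.

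Within single genotypes fewer regions passed. In control mice 9 of the 437 regions (2.06%) fell and 4 (0.915%) rose on DDC, against 2.36% and 4.66% of all regions. In deleted mice 4 fell and 2 rose (0.915% and 0.458%), against 0.743% and 2.43% of all regions. The 2 comparisons share no mice. Over the 437 regions the difference in control mice and that in deleted mice had a Pearson r of 0.58 and the same sign at 299 regions (68.4%). The same values over all regions were 0.64 and 67.6%. Regions of 1 gene are not independent, so these are descriptions. Calls in both genotypes were made at 2 regions, at the far end of C3 and beside Serpina3k. Without deleted standard-diet mice 1 and 3, 1 region was called in deleted mice, a fall. The count in control mice was 4 without control standard-diet mouse 3 or control DDC mouse 2, and 6 without control standard-diet mouse 2 or control DDC mouse 1. The count in deleted mice was 1 without deleted standard-diet mouse 1 or deleted DDC mouse 2, and 2 without deleted standard-diet mouse 3, deleted DDC mouse 1 or deleted DDC mouse 3.

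**Figure D3:**
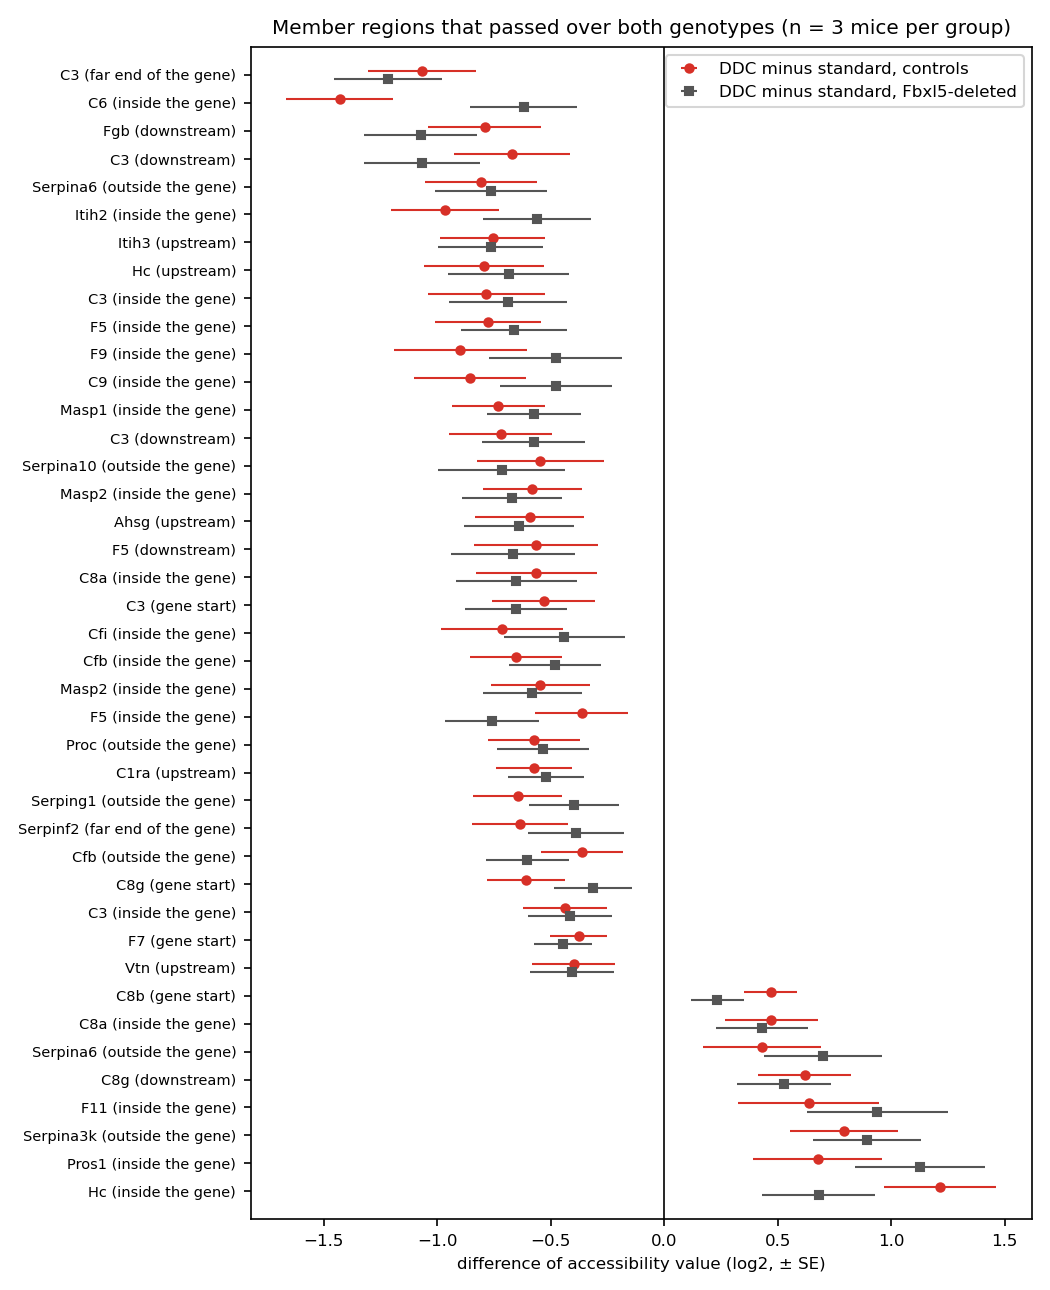
Difference between DDC and standard diet (horizontal axis, log2 ± SE, n = 3 mice per group) in control mice (red circles) and deleted mice (grey squares) at the 41 regions that passed over both genotypes, each named by gene and place. The 33 falls lie left of 0 and the 8 rises right of it in both genotypes.

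The 10 genes of the complement core and the terminal pathway had 107 tested regions, of which 13 fell at 7 genes and 4 rose at 4 genes over both genotypes. For this class and those that follow, the shares of all regions to set beside the counts are 4.87% fallen and 8.1% risen. No class was tested against these shares. C3 is the component on which all activation routes converge. The C3 region with the clearest fall overlaps the far end of the gene (chromosome 17, 57203745 to 57204177), 24175 bases from its start. Its values were 2.32, 2.46 and 2.23 in control and 2.40, 2.80 and 2.26 in deleted mice on the standard diet. It was listed in none of the 6 DDC libraries. Its difference, −1.14, is set by the lowest value and is not a true size, and as the region was tested only through the standard diet no p is given for it.

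A second C3 region, 1389 bases beyond the gene (57201725 to 57202578), had values of 2.34, 2.44 and 1.78 in control and 2.53, 2.38 and 2.44 in deleted mice on the standard diet. On DDC they were 1.72, 1.56 and 1.27 in control and 1.61, 1.27 and 1.27 in deleted mice. All 6 DDC values were below all 6 standard-diet values, and 3 of the 6 rest on the lowest value because the region was not listed. The difference was −0.87 ± 0.18 (limma, adjusted p = 0.00274). Inside the gene, a region 16282 bases from the start fell by 0.74 ± 0.18 (adjusted p = 0.0103, limma), as all 6 DDC values (1.27 to 1.78) were below the lowest standard-diet value of 1.86. A region 19983 bases from the start was listed in all 6 standard-diet libraries and in none on DDC. The latter call was lost when any 1 of 10 mice was left out.

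The C3 gene start itself (57227596 to 57228511) was listed in every library. It had values of 2.81, 2.88 and 2.69 in control and 3.14, 2.62 and 3.29 in deleted mice on the standard diet, and of 2.34, 2.10 and 2.35 in control and 2.42, 2.45 and 2.22 in deleted mice on DDC. The 2 diets did not overlap. The fall over both genotypes was 0.59 ± 0.16 (limma, adjusted p = 0.0171). It was −0.39 without deleted standard-diet mice 1 and 3 (adjusted p = 0.201, limma) and −0.63 with the covariate (adjusted p = 0.0783, limma). The window over this start is printed above, with its C/EBP match 45 bases before the start. The remaining fall lay 7892 bases beyond the gene (57194324 to 57196075, −0.65 ± 0.16), where the most open C3 region had values of 2.21 to 2.97 on DDC and 2.93 to 3.45 on the standard diet. This wide region's difference turned to 0.24 with ranks of −log10 p. The diets overlapped there, and the call was lost without deleted standard-diet mice 1 and 3 (adjusted p = 0.127, limma).

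**Figure D4:**
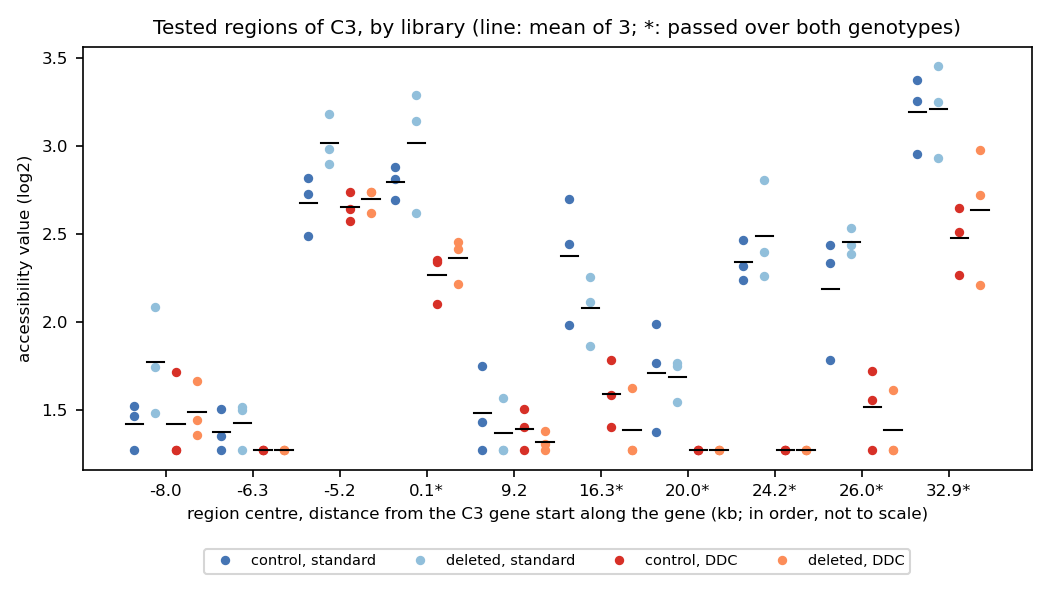
Accessibility value (log2, vertical axis) of the 10 tested C3 regions in each library, coloured by group, with a line at the mean of 3 mice. Regions are placed in order of their distance from the gene start (kb), and the 6 marked regions passed over both genotypes. At 5 of them every DDC point lies below every standard-diet point, and at the outermost the highest DDC value (2.97) exceeds the lowest standard-diet value (2.93).

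C6 encodes a component of the membrane attack pore. A region inside the gene, 67144 bases from its start (chromosome 15, 4794109 to 4794599), had values of 2.60, 2.67 and 2.83 in control mice and 2.17, 1.59 and 1.91 in deleted mice on the standard diet. It was listed in no DDC library, and no p is given for the diet. The genotypes differed on the standard diet by −0.81 ± 0.23 (adjusted p = 0.307, limma), and the 3 deleted mice were below the 3 controls. C6 had 1 called region of 7, and its gene start differed by 0.01 ± 0.12 between diets (limma, adjusted p = 0.976).

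Hc encodes C5, from which the anaphylatoxin C5a is cleaved. Its 25 tested regions went both ways. A region inside the gene, 45060 bases from the start (chromosome 2, 35016017 to 35016686), was listed in 1 of 6 standard-diet libraries (deleted mouse 1, value 1.92) and in all 6 on DDC, where values were 2.46, 2.64 and 2.35 in control and 2.12, 2.13 and 2.25 in deleted mice. This was the largest called rise over both genotypes among the 49 genes, at 0.95 ± 0.18 (adjusted p = 0.000983, limma). All DDC libraries were above all standard-diet libraries. The unlisted standard-diet libraries took the lowest value, which sets this size, and the region reached 3 libraries only through DDC. Its size and p are therefore descriptions. Upstream of the gene, a region at 35074035 to 35074679 fell by 0.74 ± 0.19 (limma, adjusted p = 0.0119). It was listed in all 6 standard-diet and 3 of 6 DDC libraries, and its fall was −0.60 without deleted standard-diet mice 1 and 3 (adjusted p = 0.109, limma). Downstream, a region at 34976948 to 34977591 fell in control mice, from values of 2.86, 3.10 and 2.79 to 2.26, 1.92 and 2.27 (adjusted p = 0.0337, limma), and its difference in deleted mice was −0.11 ± 0.22. The difference between these diet effects did not pass the interaction test.

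C8 is made of 3 chains, encoded by C8a, C8b and C8g, and the called regions of these genes went both ways. The C8b gene start rose (chromosome 4, 104765971 to 104766672). Its values were 3.76, 3.76 and 3.69 in control mice on the standard diet and 4.16, 4.23 and 4.21 on DDC. In deleted mice they were 4.04, 3.70 and 3.87 on the standard diet and 3.98, 4.20 and 4.13 on DDC. The diets did not overlap in control mice and did in deleted mice, with differences of 0.47 ± 0.12 (adjusted p = 0.0188) and 0.23 ± 0.12 (adjusted p = 0.314, limma). Over both genotypes the rise was 0.35 ± 0.08 (adjusted p = 0.00756, limma). It was the 1 rise among regions listed in all 12 libraries. The C8g gene start fell by 0.46 ± 0.12 (limma, adjusted p = 0.0148), from 3.35, 3.66 and 4.08 to 3.16, 3.01 and 3.09 in control mice and from 3.55, 3.57 and 3.77 to 3.41, 3.22 and 3.31 in deleted mice. RefSeq gives C8g a further window, at 25501670 to 25501969, whose start lies outside this region. The region also holds the start of the neighbouring gene Fbxw5, so it cannot be ascribed to C8g alone, and its call was lost without control standard-diet mouse 3. A region 9654 bases beyond C8g was listed in none of the 6 standard-diet and all 6 DDC libraries. C8a had 1 fall (−0.61 ± 0.19) and 1 rise (0.45 ± 0.14, at a region that also overlaps Fyb2) among 19 regions, and these calls were lost when any 1 of 8 and of 11 mice was left out. When a peak had to cover at least 50% of the merged region, the differences at the C8b and C8g starts changed sign, to −0.17 and 0.47.

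C9 encodes the subunit that polymerises into the pore. A region inside it, 48636 bases from the start (chromosome 15, 6493820 to 6494144), had values of 2.23, 2.03 and 2.11 in control mice on the standard diet. It was listed in 2 of 3 deleted mice on that diet (1.59 and 2.38) and in none on DDC, and no p is given for it. Cfb, the protease of the alternative pathway convertase, had 2 falls among 6 regions, of −0.57 ± 0.14 inside the gene and −0.48 ± 0.13 beyond it. The latter region lies in Nelfe and Skiv2l. C4b and C2, which form the other convertase, had no call among 6 and 5 regions. C4b reads can be shared with its near copy C4a, so its values are uncertain.

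The 7 genes that start or limit complement had 61 tested regions, of which 5 fell at 4 genes and none rose. Masp1 encodes a protease of the lectin pathway. A region inside it (chromosome 16, 23496274 to 23496840) had values of 2.96, 3.32 and 2.99 in control and 3.41, 2.89 and 3.10 in deleted mice on the standard diet, and of 2.34, 2.28 and 2.46 in control and 2.55, 2.65 and 2.49 in deleted mice on DDC. The diets did not overlap, and the fall was 0.65 ± 0.15 (adjusted p = 0.00494, limma). It was −0.53 without deleted standard-diet mice 1 and 3 (adjusted p = 0.066, limma). A region upstream of C1ra (chromosome 6, 124508996 to 124510043) fell from 3.59, 3.59 and 3.68 to 3.24, 2.97 and 2.93 in control mice and from 3.96, 3.68 and 3.45 to 3.16, 3.36 and 3.01 in deleted mice. The difference over both was −0.55 ± 0.12 (limma, adjusted p = 0.00382). The region lies within the neighbouring gene C1rl, and C1ra has a near copy, C1rb. Masp2, another lectin-pathway protease, had 2 falls (−0.63 ± 0.15 and −0.56 ± 0.15) among 10 regions, the second lost without control standard-diet mouse 2 or deleted DDC mouse 2, and Cfi, which inactivates C3b and C4b, had 1 (−0.58 ± 0.19) among 9. The Cfi call was lost when any 1 of 11 mice was left out. C1s1, Mbl2 and C4bp had no call among 3, 9 and 11 regions.

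The 10 coagulation factor genes had 82 tested regions, of which 5 fell at 3 genes and 1 rose. F5 encodes factor V, the cofactor of the prothrombin-activating complex, and had 3 of the falls. At a region 6848 bases from its start (chromosome 1, 164158387 to 164158980) the values were 2.69, 2.69 and 2.35 in control and 2.76, 2.51 and 2.61 in deleted mice on the standard diet, and 1.76, 1.83 and 1.81 in control and 2.13, 1.86 and 1.90 in deleted mice on DDC. The lowest standard-diet value was above the highest DDC value. The fall was 0.72 ± 0.17 over both genotypes (adjusted p = 0.00587) and 0.78 ± 0.23 in control mice (adjusted p = 0.0472, limma). A region just after the F5 start (164152253 to 164152535) was listed in all 6 standard-diet and 2 of 6 DDC libraries. It passed in deleted mice (−0.76 ± 0.21, adjusted p = 0.047) and over both (−0.56 ± 0.15, adjusted p = 0.0137, limma). As it reached 3 libraries only through the standard diet, its sizes and p are descriptions. The third, 8573 bases beyond the gene (−0.62 ± 0.19), was lost when any 1 of 10 mice was left out. The F5 gene start itself differed by −0.16 ± 0.15 (adjusted p = 0.511, limma).

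The F7 gene start (chromosome 8, 13025343 to 13026552) had values of 3.98, 4.09 and 4.25 in control and 4.16, 4.31 and 4.06 in deleted mice on the standard diet. On DDC it had 3.60, 3.72 and 3.87 in control and 3.68, 3.62 and 3.89 in deleted mice. All 6 DDC mice were below all 6 others, and the fall over both genotypes was 0.41 ± 0.09 (limma, adjusted p = 0.00406). It was −0.48 without deleted standard-diet mice 1 and 3 (adjusted p = 0.0124) and −0.32 with the covariate (adjusted p = 0.0962, limma). With an overlap of at least 50% it was 0.052. In F9, factor IX, a region 9382 bases from the start fell by 0.69 ± 0.21 (adjusted p = 0.0314, limma), and it was listed in 5 of 6 standard-diet and 3 of 6 DDC libraries. This call was lost when any 1 of 7 mice was left out. The 1 rise lay in F11, factor XI, 6870 bases from the start (0.79 ± 0.22, limma, adjusted p = 0.0213), listed in 4 of 6 standard-diet and 5 of 6 DDC libraries. This call was lost without control standard-diet mouse 1 or 2, or control DDC mouse 1 or 2. F2, F10, F12, F13b, Kng1 and Klkb1 had no call. The F13b start had values of 3.76 to 4.23 in the 12 libraries and differed by 0.02 ± 0.09 between diets.

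The 3 fibrinogen genes lie in a cluster and had 23 tested regions, of which 1 fell. It lay 2186 bases beyond Fgb (chromosome 3, 83039718 to 83040060), between Fgb and Fga. The values were 2.58, 2.58 and 2.70 in control and 2.93, 2.73 and 2.61 in deleted mice on the standard diet. On DDC they were 1.74, 1.51 and 2.23 in control and 1.66, 1.56 and 1.82 in deleted mice. No DDC value reached the lowest standard-diet value. The fall was 0.93 ± 0.18 over both genotypes (adjusted p = 0.00119) and 1.07 ± 0.25 in deleted mice (adjusted p = 0.0196, limma). It was the largest fall at a region listed in all 12 libraries. The gene starts of Fga, Fgb and Fgg differed between diets by −0.24 ± 0.11, −0.07 ± 0.17 and −0.09 ± 0.16 (limma, adjusted p = 0.144, 0.81 and 0.757).

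**Figure D5:**
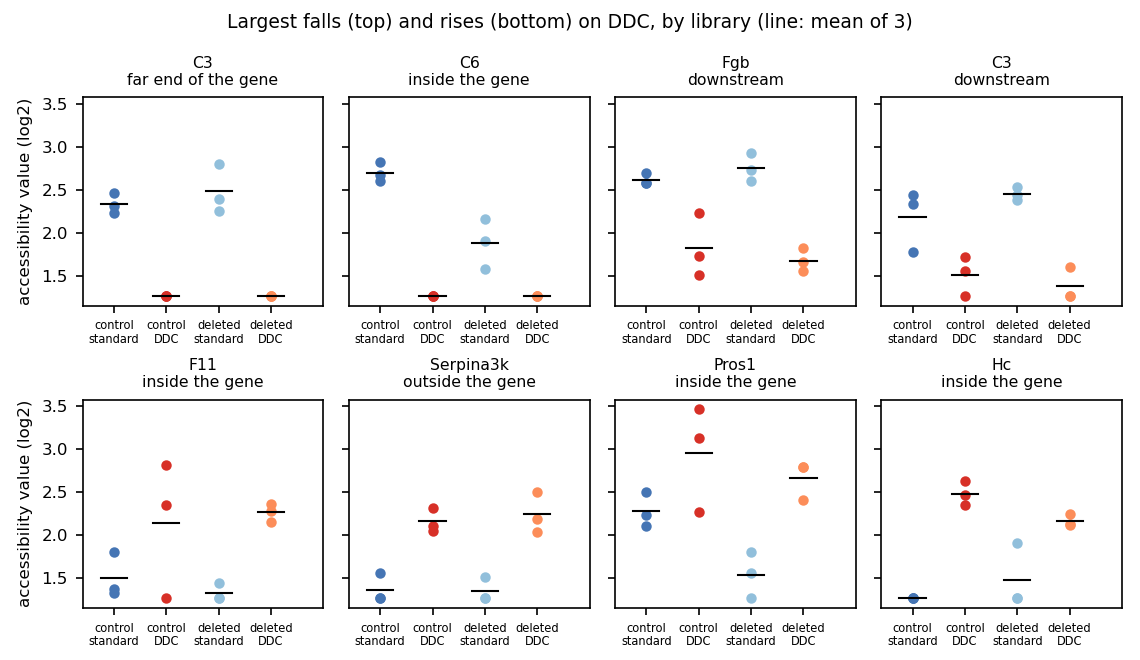
Accessibility value (log2, vertical axis) in each mouse at the 4 largest falls (top) and the 4 largest rises (bottom) on DDC over both genotypes, by group (horizontal axis), with a line at the mean of 3 mice. In all 4 falls the DDC points of each genotype lie below its standard-diet points, and points at 1.27 are libraries that did not list the region.

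The 4 genes of anticoagulation and fibrinolysis had 43 tested regions, with 1 fall and 1 rise. Pros1 encodes protein S, the cofactor of activated protein C. A region inside it, 27274 bases from the start (chromosome 16, 62881421 to 62881742), had values of 2.23, 2.50 and 2.10 in control mice and 1.27, 1.80 and 1.56 in deleted mice on the standard diet. On DDC it had 3.13, 3.46 and 2.27 in control and 2.80, 2.79 and 2.42 in deleted mice. The diets overlapped in control mice and not in deleted mice. The rise was 0.90 ± 0.20 over both genotypes (adjusted p = 0.00509) and 1.13 ± 0.29 in deleted mice (adjusted p = 0.0342, limma). Without deleted standard-diet mice 1 and 3 it was 0.77 (adjusted p = 0.0572, limma). Proc, protein C itself, had 1 fall (−0.55 ± 0.14, adjusted p = 0.0134, limma) at a region 5634 bases outside the gene. Plg, plasminogen, and Cpb2, a carboxypeptidase that slows fibrinolysis, had no call for diet.

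The 9 serpin genes had 68 tested regions, of which 4 fell at 4 genes and 2 rose at 2. Serpina6 encodes the corticosteroid-binding globulin and had one of each. A region 7941 bases outside it (chromosome 12, 103665159 to 103665718) had values of 3.36, 3.15 and 3.15 in control and 3.18, 3.11 and 3.23 in deleted mice on the standard diet, and of 1.75, 2.80 and 2.68 in control and 2.33, 2.67 and 2.22 in deleted mice on DDC. The diets did not overlap, and the fall was 0.79 ± 0.17 (adjusted p = 0.00452, limma). On its other side, a region 1724 bases from the gene rose by 0.56 ± 0.18 (adjusted p = 0.048, limma), a call lost when any 1 of 10 mice was left out. Serpina3k, of the antichymotrypsin family, had a rise 6148 bases outside the gene (104351887 to 104352155). This region was listed in 2 of 6 standard-diet libraries (1.57 and 1.52) and in all 6 on DDC, at 2.11, 2.05 and 2.32 in control and 2.19, 2.04 and 2.50 in deleted mice. The rise was 0.84 ± 0.17 over both genotypes (adjusted p = 0.00201), and it passed in control mice (adjusted p = 0.0482) and in deleted mice (adjusted p = 0.0433, limma). As at Hc, the unlisted standard-diet libraries took the lowest value and the region reached 3 libraries only through DDC, so size and p are descriptions.

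Smaller falls lay outside Serping1, the C1 inhibitor (−0.52 ± 0.14), outside Serpina10, an inhibitor of factor X that acts with protein Z (−0.63 ± 0.20, within Ppp4r4), and at the far end of Serpinf2, the plasmin inhibitor (−0.51 ± 0.15). Without deleted standard-diet mice 1 and 3 these 3 had adjusted p of 0.0897, 0.274 and 0.123 (limma), and they were also lost when any 1 of 2, 8 and 5 mice was left out. Serpinc1, the antithrombin gene, and Serpind1, Serpina1a and Serpina1b had no call among 11, 8, 5 and 3 regions. Serpina1a, Serpina1b and Serpina3k have near-identical family members, so reads may have been split between copies.

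The 6 carrier and inter-alpha-inhibitor genes had 53 tested regions, of which 4 fell at 4 genes and none rose over both genotypes. Itih1, Itih2 and Itih3 encode heavy chains that are passed to hyaluronan. A region upstream of Itih3 (chromosome 14, 30925545 to 30926081), between Itih3 and Itih1, had values of 2.48, 2.82 and 2.60 in control and 2.75, 2.50 and 2.63 in deleted mice on the standard diet, and of 1.91, 1.86 and 1.87 in control and 1.96, 1.74 and 1.89 in deleted mice on DDC. The 6 DDC values lay close together and all below the others, and the fall was 0.76 ± 0.16 (adjusted p = 0.00356, limma). A region inside Itih2 (chromosome 2, 10094749 to 10095131) fell from 3.04, 2.77 and 2.97 to 2.23, 1.82 and 1.84 in control mice (−0.97 ± 0.24, adjusted p = 0.0166, limma). In deleted mice its values were 3.00, 2.91 and 2.51 and then 2.13, 2.53 and 2.07, which overlap, and the fall over both was 0.76 ± 0.17 (limma, adjusted p = 0.00436). A region inside Itih1 (chromosome 14, 30930145 to 30931117) rose in control mice, from 1.49, 1.75 and 2.17 to 2.70, 2.68 and 3.06 (1.01 ± 0.26, adjusted p = 0.0224, limma). Its difference in deleted mice was 0.11 ± 0.26, and the interaction did not pass. Ahsg, fetuin-A, had a fall upstream of its start (−0.62 ± 0.17), and Vtn, vitronectin, had one 7829 bases upstream that lies in Sarm1 (−0.40 ± 0.13), a call lost when any 1 of 10 mice was left out. Itih4 had no call.

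Deletion of Fbxl5 gave no called region among the 437. On the standard diet 0% of all regions rose and 0.000722% fell, and on DDC 0% rose and 0% fell. Over both diets the shares were 0% and 0.000722%. At an unadjusted p under 0.05 (limma), 7 of the 437 were higher and 14 lower in deleted mice on the standard diet, 9 higher and 1 lower on DDC, and 10 higher and 3 lower over both diets. These were 1.60% and 3.20%, 2.06% and 0.229%, and 2.29% and 0.686% of the 437, against 2.67% and 5.42%, 2.26% and 3.68%, and 2.57% and 4.95% of all regions. The smallest adjusted p was 0.307, 0.461 and 0.485. None of the alternatives run gave a call at these genes. A p that misses the threshold does not show that the genotypes were alike.

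The regions nearest to a genotype call included both directions. F9, factor IX, appeared in each of these comparisons. Its gene start (chromosome X, 59999080 to 59999783) had values of 3.20, 2.89 and 3.14 in control and 3.54, 3.46 and 3.69 in deleted mice on the standard diet, and of 2.99, 3.31 and 3.70 in control and 3.74, 3.84 and 3.57 in deleted mice on DDC. The genotypes did not overlap on the standard diet and overlapped on DDC. The difference was 0.48 ± 0.18 on the standard diet, 0.38 ± 0.18 on DDC and 0.43 ± 0.12 over both (limma, adjusted p = 0.46, 0.821 and 0.485). A region inside F9 differed on DDC by 0.42 ± 0.14 (adjusted p = 0.605, limma). On the standard diet the other regions were that of C6 described above and one inside Cfi (0.58 ± 0.22, adjusted p = 0.482, limma).

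On DDC a region inside Cpb2 (chromosome 14, 75249712 to 75250840) had values of 3.39, 3.29 and 3.21 in control and 3.85, 3.77 and 3.77 in deleted mice, a difference of 0.50 ± 0.15 (adjusted p = 0.461, limma). On the standard diet the same region had 3.57, 3.59 and 3.33 in control and 3.29, 3.55 and 3.21 in deleted mice. A weak region inside Serping1 was listed in the 3 deleted DDC libraries and in no other, and it entered the test only through them. The regions of Pros1 and C6 described above differed over both diets by −0.51 ± 0.20 and −0.41 ± 0.17 (limma, adjusted p = 0.61 and 0.622).

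The interaction test called a genotype difference in the DDC effect at none of the 437 regions (limma, 0% of all regions higher and 0% lower). At an unadjusted p under 0.05 (limma), 13 were higher (2.97%, against 3.42% of all regions) and 2 lower (0.458%, against 2.45%). The smallest adjusted p was 0.847 (limma), both among the 437 and over all regions. Such a result does not show that the DDC effects were alike. The 3 nearest to a call were a region upstream of Fgb that holds the start of Plrg1 (−0.71 ± 0.29), one inside C8a that also overlaps Fyb2 (0.56 ± 0.25) and one at the far end of Itih2 (0.49 ± 0.22). The C8a region was listed in only 3 libraries, so its size rests mostly on the lowest value. The Fgb region had values of 2.70, 2.31 and 2.92 in control and 3.32, 3.12 and 3.11 in deleted mice on the standard diet, and of 3.11, 3.08 and 3.21 in control and 3.04, 2.64 and 3.19 in deleted mice on DDC.

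Other genes of these pathways were examined as a list of 76 complement receptors and regulators, clotting receptors and cofactors, and further protease inhibitors, 73 of which had a tested region (C7, Colec10 and F2rl3 had none). Of their 507 regions, 36 (7.10%) at 27 genes rose and 32 (6.31%) at 22 genes fell on DDC over both genotypes, against 8.1% and 4.87% of all regions. Of the 507, 12 are also counted among the 437, and 2 of these fell (the regions of C1ra and Serpinf2). In control mice 19 rose and 13 fell (3.75% and 2.56%, against 4.66% and 2.36% of all regions). In deleted mice 5 rose and 4 fell (0.986% and 0.789%, against 2.43% and 0.743%, limma, adjusted p under 0.05). The largest rises over both genotypes were at Plat, tissue plasminogen activator (1.63 ± 0.18), Serpina7, thyroxine-binding globulin (1.48 ± 0.21), C5ar1, the C5a receptor (1.15 ± 0.21), C1s2 (1.10 ± 0.21) and Itgam, a subunit of complement receptor 3 on myeloid cells (1.07 ± 0.19). Among the largest falls were those at Hgfac, the protease that activates hepatocyte growth factor (−1.24 ± 0.18), Serpina1e (−0.99 ± 0.21) and C4a (−0.85 ± 0.25 and −0.80 ± 0.19). In control mice the largest included rises at Serpina7 (1.64), C5ar1 (1.50), Plat (1.45), Plaur (1.37) and Itgam (1.37) and falls at Hgfac (−1.28), Mug2 (−0.98), C4a (−0.92) and Lman1 (−0.86). In deleted mice they included rises at Plat (1.81), Serpina7 (1.33), Itih5 (1.22), Plaur (1.17) and Serpinb6a (1.16) and falls at Hgfac (−1.19), Serpina1e (−1.13) and Serpina5 (−0.68). The Plaur region with the rise of 1.37 was listed in no standard-diet library. It entered the test only through DDC and had to rise, so its call is a description. In control mice the C5ar1 region was unlisted on the standard diet, and the Mug2 and C4a regions were unlisted on DDC. The Hgfac region was unlisted in deleted mice on DDC. These values therefore rest on the lowest value and are not true sizes. The C5ar1 region also lies near C5ar2, and C4a, C1s2 and Serpina1e have near-identical copies. No region of the list was called for genotype or for the interaction.

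Marker genes of other liver cells were counted in the same way, beside 8.1% of all regions that rose and 4.87% that fell. Over both genotypes 7 of 42 regions (16.7%) at 9 macrophage and myeloid genes rose and 1 fell, 10 of 38 (26.3%) at 7 stellate and matrix genes rose and 2 fell, and 8 of 66 (12.1%) at 9 sinusoidal endothelial genes rose and 3 fell. At 9 hepatocyte genes 2 of 109 regions (1.83%) rose and 3 (2.75%) fell. Hepatocyte regions listed per library numbered 83, 97 and 153 in control and 88 to 99 in deleted mice on the standard diet, and 65 to 73 and 60 to 82 on DDC. Of 21 cholangiocyte regions none rose and 2 fell, and of 18 lymphocyte regions none rose and 1 fell. Macrophage and myeloid regions listed per library numbered 28 to 31 in control and 29 to 35 in deleted mice on the standard diet, and 36 to 47 and 30 to 43 on DDC. Stellate and matrix regions numbered 28 to 35 and 23 to 34, and then 41 to 43 and 32 to 38. Sinusoidal endothelial regions numbered 45 to 51 and 49 to 52, and then 58 to 70 and 55 to 61. Lymphocyte gene starts were listed in no library, and Krt19, Clec4f, Dcn and Cd8a had no tested region. The part of other cells in the diet differences at the 49 genes was not tested.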

How the data were processed

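ATAC-seq peak lists of 12 hepatocyte libraries, 1 per mouse, were used. Per the submitters' processing notes the tools were MACS2, Bowtie2, fastp, Picard, SAMtools, deepTools and bedtools, on mm10. The notes give no order, settings or correction for the transposase offset. The authors deposited 1 list per library, so replicates were not pooled. Its fold enrichment (a ratio), −log10 p, −log10 q, score and summit are the authors' deposited values, of which score and summit were left unused. Read counts are absent from the lists, so depth is known only through the peaks, and 46949 to 86745 per library had a −log10 q of at least 5.

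Only autosomes 1 to 19, X and Y entered, summits of 1 peak were merged, and the 137034 strongest by fold enrichment, the length of the shortest list, were kept per library and joined across libraries at an overlap of 1 bp or more. Regions in at least 3 of 12 lists went into limma 3.58.1 under R 4.3.3 (trend and robust eBayes, 4 group means, two-sided, Benjamini-Hochberg over all tested regions, 7 comparisons), which was also tested on simulated data. Figures and tables used Python 3.11.15, pandas 2.3.3, numpy 2.4.6 and matplotlib 3.10.9. A region near 2 of the genes was counted under the gene whose span it overlapped or lay nearest to. The genes and lists were chosen with earlier results of these data known. Regions named with values were those called, up to the 12 largest rises and falls per comparison, the 3 nearest to a call where none was made, the 3 most accessible gene starts per class, and up to 5 regions per direction of the other pathway genes, a few of which are not reported here. Of the hepatocyte markers, 9 of 10 were matched in the annotation.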

Additional observations from a re-analysis of the deposited data

How the results depend on the processing

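Calls among the 437 regions in the main analysis numbered 13 for DDC in controls, 6 for DDC in deleted mice and 41 for DDC over both genotypes. In the same order they were 14, 4 and 44 with all deposited peaks, 6, 2 and 17 with peaks of −log10 q of at least 5, 32, 14 and 65 with ranks of −log10 p, 4, 1 and 13 with 50% overlap, and 2, 1 and 14 without the filter on listed libraries. They were 21, 11 and 47 with plain eBayes, 15, 1 and 21 without deleted standard-diet mice 1 and 3, and 2, 4 and 17 with the weakest kept fold enrichment as a covariate, which was chosen after seeing the data. Regions within 0 kb gave 10, 3 and 24 and regions within 50 kb 42, 18 and 105. With a replicate block they were 11, 4 and 43. After the group means were removed, same-numbered mice correlated at −0.0237 to 0.0564 and differently numbered mice at −0.0431 to 0.0257. Of the 12 libraries, 8 correlated best with their own number. The labels name no pairing, and these small correlations do not settle whether same-numbered mice share some structure. Leaving out 1 mouse gave 4 to 16, 1 to 5 and 32 to 38. Deletion of Fbxl5 and the interaction gave 0 calls in each of these settings. The number of tested regions at these genes differed between some settings, so the counts do not all refer to 437 regions. Of the 41 regions, 14 lost their call without at least 1 mouse and 0 changed sign. Differences changed sign with 50% overlap at the C8g start (1.19 in controls, 0.47 over both genotypes), the C8b start (−0.51 and −0.17), the F7 start (0.052), the outermost C3 region (0.59, and 0.24 with ranks of −log10 p) and, for deletion on DDC, the Cpb2 region (−0.28). The cause of these shifts was not tested. Read depth is not given by the lists, so whether an unlisted region was closed or below detection cannot be told apart.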

Other observations

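Regions farther from the 49 genes, between 10 and 50 kb from their spans, were also tested, and this distance was chosen after seeing the data. Of 396 such regions, 36 (9.09%) rose and 28 (7.07%) fell on DDC over both genotypes, against 8.1% and 4.87% of all regions, and the median difference was −0.02 (limma, adjusted p under 0.05). Several differences there were larger than any within 10 kb. Rises included regions 30567 bases from Itih1 (1.88 ± 0.20), 38660 bases from C8g (1.71 ± 0.20), 11943 bases from Kng1 (1.46 ± 0.17) and 20569 bases from Serpina3k (1.42 ± 0.24). Falls included regions 43655 bases from Serping1 (−1.76 ± 0.19), 47999 bases from C6 (−1.47 ± 0.23), 49188 bases from Serpina3k (−1.36 ± 0.20) and 32262 bases from Klkb1 (−1.25 ± 0.17). Other genes lie in these stretches, so the regions cannot be ascribed to the named genes. Some of the called regions, among them falls at C4a, are also counted in the list of other pathway genes, so these counts are not separate observations.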
